A study of Mus musculus with 2 samples.

Results

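The imprinted domain around Peg13, Kcnk9 and Trappc9 on mouse chromosome 15 was examined in RNA-Seq alignments of whole embryonic brain. Its 7 members were chosen by position on the mm9 build. They were the 4 entries of the deposited catalog of imprinted genes that start in the stretch from just before Kcnk9 to Ptk2 (Kcnk9, Peg13, Nibp and 1810044A24Rik), and 3 candidate intervals of the study in the same stretch (AK039650/AK044369, Eif2c2 and DQ715667). These are 7 of 181 entries, of which 128 were catalog entries and 53 were candidates. Nibp is an older name of Trappc9, and 1810044A24Rik is listed as another synonym of the same gene, so 2 of the 7 entries describe overlapping stretches of 1 gene. Eif2c2 is the older name of Ago2.

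The samples were 2 libraries from F1 hybrid embryos at E17.5 (days of embryonic development), 1 for each direction of the cross. The BxC library came from the brain of an embryo with a C57BL/6J mother and a CastEi/J father (the labels' spelling of CAST/EiJ), and the CxB library from one with a CastEi/J mother and a C57BL/6J father. Both were made from polyA+ RNA, and no treatment is given for either, and every autosomal gene has 1 C57BL/6J and 1 CastEi/J copy. No replicate check and no test between crosses could be made from single libraries, and a difference between the libraries cannot be told apart from a difference between these embryos or their processing. For a gene expressed mainly from the copy of 1 parent, the strain of that copy also changes with the cross. A difference in such a gene cannot be told apart from a difference between the strains' copies. Intervals below are 95% intervals for counting error only, and PCR reads without molecular identifiers are not independent molecules.

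Imprinted genes are expressed mainly from the copy of 1 parent. Peg13 is a non-coding RNA that lies within an intron of Trappc9 and is transcribed from the paternal copy, and the stretch around its start is methylated on the maternal copy. Kcnk9, which encodes the potassium channel TASK3, is a maternally expressed gene of the brain, and Trappc9 encodes a subunit of the TRAPP complex, which tethers transport vesicles. Eif2c2 encodes the Argonaute protein that binds small RNAs and cleaves their targets. The catalog gave Kcnk9 as maternal and Peg13 as paternal and gave no parent for Nibp or 1810044A24Rik. Reads were not separated by allele here, so all values below are sums over both parental copies.

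The alignments held 128944754 reads in BxC and 109719746 in CxB, taking the fourth field of each alignment line as its number of reads. The sum of this field is larger than the mean number of reads per library given in the study's methods, so what the field counts is uncertain, and values with each line counted once are given where they turn a statement. Of these, 6.47% and 6.20% crossed a splice junction. The neuronal markers Tubb3 (974 and 840 RPKM, which are reads per kilobase scaled to a total of 1000000 reads) and Stmn2 (343 and 355 RPKM) and the progenitor marker Fabp7 (152 and 160 RPKM) were high in both libraries. Of the markers listed for other tissues and reported here, only Alas2 of red blood cells (7.75 and 5.46 RPKM) and Ttr of the choroid plexus (253 and 281 RPKM) had at least 100 reads in each library. The choroid plexus is part of the brain, so Ttr does not mark another tissue here. Hbb-bh1 had 0 reads in both libraries. Alb of liver had 0 and 45 reads, and the part of other tissues in the results was not tested. A count of 0 allows up to 3 reads, which is 0.0233 RPM, reads scaled to a total of 1000000, in BxC and 0.0273 RPM in CxB. The strand of the reads was only weakly marked. Among 13884 protein-coding genes, the median share on the strand opposite to the gene was 56.1% for BxC and 56.8% for CxB. With each line counted once it was 51.9% and 53.0%.

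The region from 250 bases before to 50 bases after the catalogued 5′ end of Peg13 (mm9 chr15:72640705-72641004, minus strand, within a Trappc9 intron) is shown because the reads of the domain begin to rise there and because the methylation known at this place falls on CG dinucleotides, which are in capitals.

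Peg13 start region: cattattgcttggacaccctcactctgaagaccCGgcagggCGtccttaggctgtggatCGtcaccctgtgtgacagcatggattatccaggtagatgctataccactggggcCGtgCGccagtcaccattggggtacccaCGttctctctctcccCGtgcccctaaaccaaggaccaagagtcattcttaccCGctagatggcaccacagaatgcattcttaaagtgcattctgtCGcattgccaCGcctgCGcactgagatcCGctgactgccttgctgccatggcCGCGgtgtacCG

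The window held 15 CG dinucleotides. The median over 32851 RefSeq promoters of the same 300 bases, read on GRCm38.p6, was 7, and 65.4% of them held fewer than the Peg13 window. At least 1 CG was present in 94.6% of the RefSeq promoters. The letters describe the sequence only, since methylation was not measured here.

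Trappc9 is joined across Peg13 by an intron of 146198 bases (chr15:72587789-72733986, minus strand). Its donor site is shown with 12 bases on each side, with the first bases of the intron in capitals.

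Trappc9 donor before Peg13: ggccacgtcaagGTtagtccatcc

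Peg13 had the highest level per length of the 7 members in both libraries. Over its 4721 bases (chr15:72636034-72640754, minus strand) 21119 reads were counted in BxC and 15941 in CxB. This was 34.7 RPKM (34.2 to 35.2) in BxC and 30.8 RPKM (30.3 to 31.3) in CxB, and 94.9% and 94.2% of 22380 annotated protein-coding genes were lower. Reads did not all come from a few positions, since the 10 deepest lines held 10.3% and 9.99% of them. No spliced read touched Peg13 in either library. The authors aligned to junction sequences built from gene models, so a splice outside those models would not have been seen.

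Over its annotated exons, Kcnk9 was higher than 77.2% of 22380 annotated protein-coding genes in BxC and 79.1% in CxB. Its coding exons (chr15:72342551-72376709, minus strand, 1207 bases in 2 blocks) held 1323 reads in BxC and 1254 in CxB, which was 8.50 RPKM (8.05 to 8.97) and 9.47 RPKM (8.95 to 10.01). Its intron was low, with 0.0631 RPKM in BxC and 0.0470 RPKM in CxB. The first exon had 12.6 and 13.7 RPKM, and the second 7.33 and 8.21 RPKM. The single annotated junction of Kcnk9 carried 8 reads in BxC and 4 in CxB.

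AK039650/AK044369 (chr15:72337420-72339688), a candidate interval on the 3′ side of Kcnk9, had 1483 reads in BxC and 1570 in CxB, which was 5.07 RPKM (4.82 to 5.34) and 6.31 RPKM (6.00 to 6.63). It was the member with the largest excess of CxB. DQ715667 (chr15:72928918-72929497), a candidate of 579 bases on the 3′ side of Eif2c2, had 419 and 342 reads, which was 5.61 RPKM (5.09 to 6.18) and 5.38 RPKM (4.83 to 5.99).

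The members listed as whole gene spans had low values per length and introns filled most of their bases. Eif2c2 (chr15:72932054-73015377) had 13898 reads in BxC and 11476 in CxB, which was 1.29 and 1.26 RPKM over the span. Over its annotated exons alone it had 11.8 and 11.4 RPKM. Nibp (chr15:72420051-72886240), with the reads of Peg13 taken out, had 12899 and 9561 reads, which was 0.217 and 0.189 RPKM over the span. Over the exons of the full-length Trappc9 transcripts the values were 11.4 and 10.03 RPKM. 1810044A24Rik (chr15:72771838-72891634), which covers the first part of Trappc9, had 4311 and 3186 reads, or 0.279 and 0.242 RPKM. The catalog lists both Trappc9 entries on the plus strand, whereas the annotation places the gene on the minus strand.

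With Trappc9 taken over the exons of its full-length transcripts, the order was Peg13, then Eif2c2 and Trappc9, then Kcnk9. Over all annotated Trappc9 exons, which include the last exons of shorter transcripts, Trappc9 was at 7.98 RPKM in BxC and 6.76 RPKM in CxB, below Kcnk9 in both libraries. Over the full-length exons, Eif2c2 and Trappc9 were close in BxC, at 11.8 and 11.4 RPKM, and further apart in CxB, at 11.4 and 10.03 RPKM. The order of Kcnk9 and Trappc9 thus depends on which Trappc9 exons are counted. No spread over embryos is known for any of them.

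**Figure D1:**
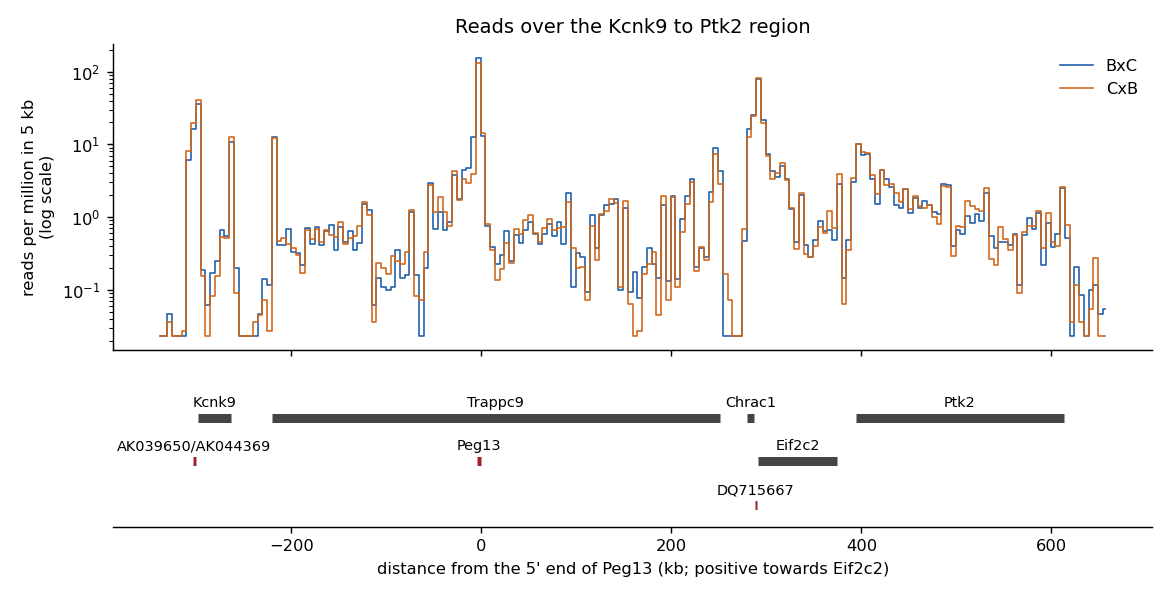
RPM in windows of 5 kb (log scale) by distance from the 5′ end of Peg13 in BxC and CxB, with annotated genes (dark) and Peg13 and 2 candidate intervals (red) drawn below. They are to scale except DQ715667, which is drawn wider than its length. The highest windows lie at Peg13 and at the 3′ end of Eif2c2, and the 2 libraries follow each other over most of the region. Windows under the value of 3 reads in BxC are drawn at that value, 0.0233 RPM.

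No member differed between the crosses by 1.5-fold. For annotated genes with at least 100 reads in each library, 0.473% of 15427 were at least 1.5-fold higher in CxB and 0.622% at least 1.5-fold lower, and the members' count was 0 of 7 in both directions. The median log2 ratio of CxB over BxC was -0.06 over the 7 members and -0.0011 over the annotated genes. The ratio of Peg13 was -0.17 on the log2 scale (-0.20 to -0.14), and those of Nibp and 1810044A24Rik were -0.20 (-0.24 to -0.16) and -0.20 (-0.27 to -0.14). Kcnk9 was at 0.16 (0.04 to 0.27) and AK039650/AK044369 at 0.32 (0.21 to 0.42). With each line counted once, Kcnk9 was at -0.01, so its excess in CxB was not seen, and AK039650/AK044369 was at 0.28. Peg13, Nibp and 1810044A24Rik were then at -0.09, -0.15 and -0.09. Eif2c2 was at -0.04 (-0.08 to -0.01) and DQ715667 at -0.06 (-0.27 to 0.15).

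**Figure D2:**
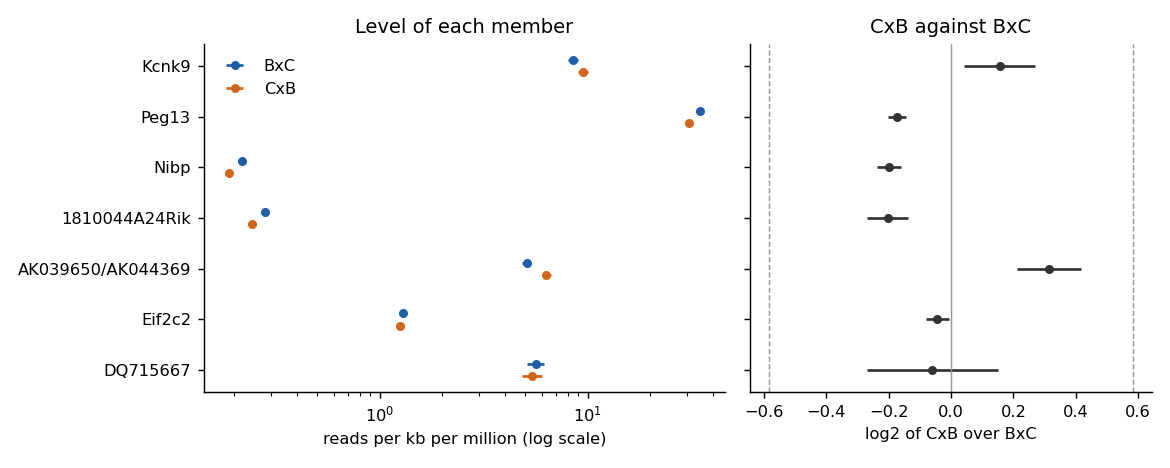
Left, level of each member in BxC and CxB in RPKM (log scale), with points for the value and bars for the 95% counting interval. Right, log2 of CxB over BxC with the same kind of interval and dashed lines at 1.5-fold, between which all 7 members lie.

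Peg13 held more reads than the rest of the Nibp span, though not more alignment lines. Of 34018 reads over the span in BxC, 21119 overlapped Peg13, a share of 62.1% (exact Clopper-Pearson interval 61.6 to 62.6). Of 25502 in CxB, 15941 did so, a share of 62.5% (61.9 to 63.1). The exons of Trappc9 held 12.98% and 13.5% of the span's reads, and the introns 23.6% and 23.3%. A count over the Nibp entry as listed thus mixes a paternally catalogued RNA with its host gene, and which of them is larger depends on the counting. With each line counted once the Peg13 share was 43.8% in BxC and 44.9% in CxB.

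Outside Peg13, Trappc9 had the read pattern of a spliced gene. On the strand of the gene, exons held 2536 reads over 4139 bases in BxC and introns 3203 reads over 460034 bases, a density ratio of 88.0 (83.5 to 92.7). In CxB the numbers were 1848 and 2339 reads and the ratio was 87.8 (82.6 to 93.4). With each line counted once the ratios were 58.0 in BxC and 63.3 in CxB. Reads were found on 23 of 27 annotated Trappc9 junctions in both libraries, with 692 junction reads in BxC and 521 in CxB.

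Splicing across Peg13 was seen directly. The junction whose donor is printed above carried 75 reads in BxC and 32 in CxB, on 16 and 12 alignment lines. Transcripts Trappc9-204 and Trappc9-205 of the annotation end instead in last exons within this intron, Trappc9-205 at chr15:72629954-72631832, between Peg13 and the acceptor. Their junctions carried 0 reads in both libraries, which allows up to 3 reads each. Whether these junctions were among the sequences that the authors aligned to is not given in the sources used here. The 18 full-length junctions before Peg13 had 17 reads in BxC and 14.5 in CxB as the median, and the 5 after it had a median of 7 in both.

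Exon density did not drop past Peg13. The 18 Trappc9 exons before it had 10.8 RPKM in BxC and 9.23 RPKM in CxB. The 6 exons after it had 13.2 and 12.1 RPKM. The ratio of CxB over BxC was -0.23 (-0.30 to -0.16) on the log2 scale before Peg13 and -0.13 (-0.23 to -0.04) after it, and these intervals overlap.

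The first part of Trappc9 included a short exon of 27 bases (chr15:72872607-72872633, minus strand). It is printed in capitals with 12 intron bases on each side, because such short exons depend on how reads are aligned.

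Trappc9 short exon: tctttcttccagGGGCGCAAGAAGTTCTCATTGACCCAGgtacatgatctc

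Its downstream junction carried 254 reads in BxC and 189 in CxB, and its upstream junction 6 and 8. Reads that joined the neighbouring exons without it numbered 25 and 18. With both flanking junctions averaged, inclusion reached 83.9% (BxC) and 84.5% (CxB), or 69.4% and 60% with each alignment line counted once. The 2 flanking junctions of the same exon thus carried very different numbers of reads, and the inclusion rests mostly on 1 of them. The annotated starts differed in their reads. The junction from the first exon of Trappc9-203 had 27 and 17 reads, and that of Trappc9-201 had 0 reads in both libraries. Whether the Trappc9-201 junction was among the sequences aligned to is not given. Internal junctions can also lack reads, since only 15 of 18 annotated Eif2c2 junctions had reads in both libraries.

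The intron that encloses Peg13 stood apart from the other introns of Trappc9, also with Peg13 left out. It held 15.1 host-strand reads per kilobase in BxC and 10.1 in CxB, not scaled to depth. Host-strand reads lie on the gene's strand, and with strand only weakly marked they do not isolate host transcripts. The median of the other 21 introns was 2.94 in BxC, with a range over introns from 0.768 to 10.7, and 1.90 in CxB, with a range from 0 to 7.13, and the enclosing intron was above all of them in each library. Within it, the density on the far side of Peg13, in the direction of transcription, was 31.8 reads per kilobase in BxC and 18.8 in CxB, against 6.75 and 5.77 on the near side. The far side was therefore 4.71 times denser (4.29 to 5.18) in BxC and 3.26 times denser (2.92 to 3.64) in CxB. Over all introns the density after Peg13 was 2.34 times (2.17 to 2.52) that before it in BxC and 2.02 times (1.86 to 2.20) in CxB.

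**Figure D3:**
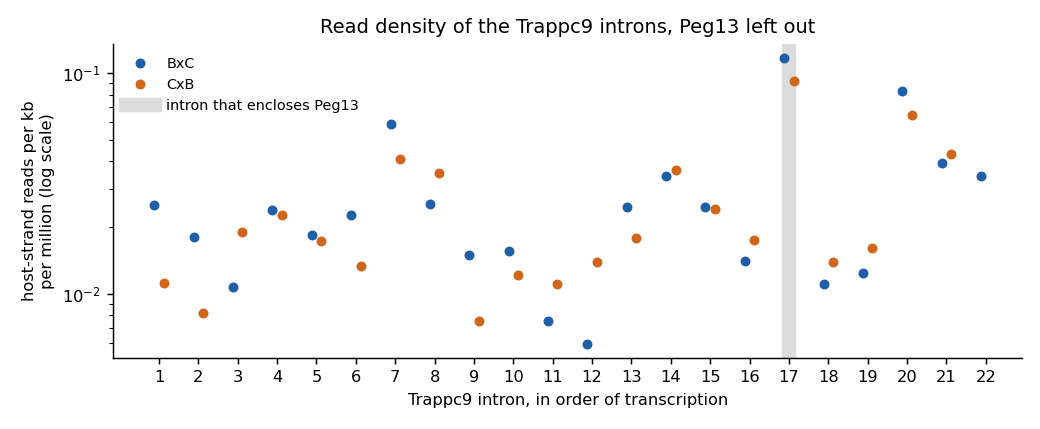
Host-strand RPKM (log scale) in each of the 22 introns of Trappc9 in order of transcription, Peg13 left out, in BxC and CxB. Intron 17, which encloses Peg13 (grey), is the highest in both libraries, and a library with 0 reads in an intron has no point there.

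The excess followed Peg13 on 1 side. In the 5 kb before its start, 154 reads were counted in BxC and 137 in CxB. In the 5 kb after its end there were 1797 reads in BxC and 414 in CxB. From 5 to 10 kb the counts were 615 and 335, and from 25 to 30 kb they were 157 and 141. Since Peg13 and Trappc9 are transcribed in the same direction, reads after the end of Peg13 cannot be assigned to either of them.

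The difference between the crosses was larger in this stretch than in Peg13 itself, whose log2 ratio was -0.17. In the first 5 kb the reads were 3.69-fold more frequent in BxC than in CxB after scaling to the totals, a log2 ratio of CxB over BxC of -1.88 (-2.04 to -1.73). The difference was smaller with distance, at -0.64 (-0.84 to -0.45) from 5 to 10 kb and -0.56 (-0.74 to -0.38) from 10 to 15 kb. From 15 to 20 kb it was -0.23 (-0.50 to 0.05) and from 20 to 25 kb it was 0.19 (-0.01 to 0.38). Before the start the ratio was 0.06 (-0.28 to 0.41). Alignment lines had the same direction, with 722 in BxC and 260 in CxB over the first 5 kb, a log2 ratio of -1.24 (-1.45 to -1.04) scaled to the total of lines.

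In windows of 1 kb without annotated exons and with at least 100 reads over both libraries, 16 lay in the 30 kb after Peg13. Of these, 6 were at least 2-fold lower in CxB, against 1.62% of 71072 such windows across the genome, and 0 were at least 2-fold higher. The lowest was at -2.50 on the log2 scale, with 346 reads in BxC and 52 in CxB, and 19 windows of the genome, itself included, were that low or lower. The highest of the 16 was at 0.58. These windows neighbour each other and were described after their values were seen, with 1 library per cross.

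Within Peg13 the ratio varied from piece to piece and stayed closer to 0 than in the 5 kb after its end. In 5 consecutive pieces from the start it was 0.00 (-0.08 to 0.09), -0.21 (-0.29 to -0.14), 0.03 (-0.06 to 0.11), -0.23 (-0.28 to -0.18) and -0.25 (-0.31 to -0.19) on the log2 scale. The reads of the deposited alignments carry no allele label here, so whether the extra BxC reads came from the paternal CastEi/J copy was not tested. The last annotated exon of Trappc9-205 lies in the same stretch, with 462 reads in BxC and 163 in CxB, a log2 ratio of -1.27 (-1.54 to -1.01).

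Coverage of at least 2 reads, joined over gaps of at most 100 bases, ran 906 bases past the catalogued end of Peg13 in BxC and 887 bases in CxB. At this depth the edges of the 2 libraries were at nearly the same place. They were set by the joining rule, and reads continued past them in both libraries, as given below. Coverage of at least 1 read ran on for 8359 bases in BxC and 5496 bases in CxB, and no hexamer named below lay in the last 50 bases before either of those edges. The last 50 bases before the CxB edge at 2 reads are shown with the polyadenylation hexamer AATAAA in capitals (chr15:72635147-72635196, minus strand).

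Peg13 far edge: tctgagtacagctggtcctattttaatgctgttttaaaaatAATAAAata

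The hexamers AATAAA and ATTAAA were searched on this strand. The same search at 2 reads found 2 hexamers in the last 50 bases of the stretch past Eif2c2 in both libraries and 0 at the edge past Kcnk9 in both. The BxC edge past Kcnk9 lay at 8220 bases, while BxC reads began up to 10.49 kb past the annotated end. That BxC window was therefore not where the reads stopped. At 1 read the search found 0 in BxC and 2 in CxB past Eif2c2, and 0 in BxC and 1 in CxB past Kcnk9. One or both occurred in 4.39% of the 26000 windows of 50 bases across the domain. Read density in the extension of Peg13 at 2 reads was 390 reads per kilobase in BxC and 58.6 in CxB. The last piece of Peg13 had 7660 and 5491. From the CxB edge at 2 reads to 5 kb past Peg13 the density was 354 in BxC and 88.3 in CxB. It was thus only a little lower past the edge in BxC and higher past it in CxB.

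**Figure D4:**
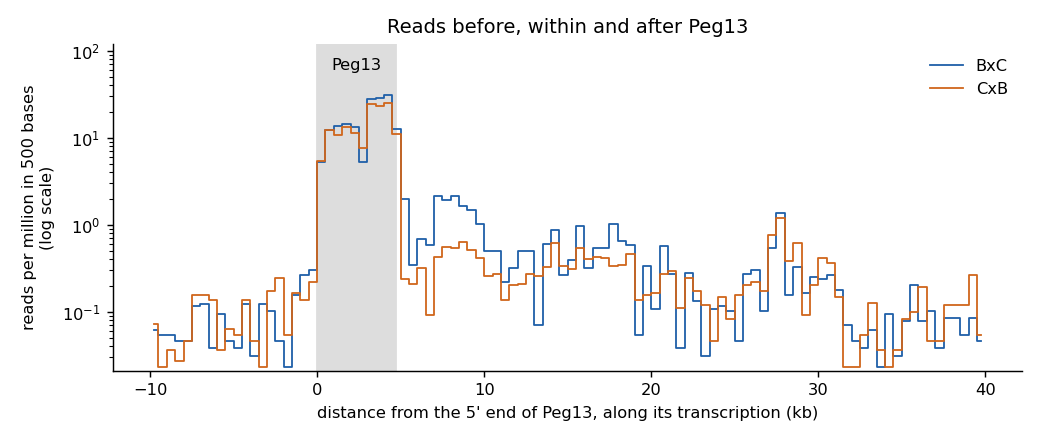
RPM in windows of 500 bases (log scale) by distance from the 5′ end of Peg13 along its transcription, with Peg13 in grey. The 2 libraries lie close to each other within Peg13, BxC lies above CxB over the first 5 kb after its end, and the lines meet again farther on.

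AK039650/AK044369 was joined to Kcnk9 by reads. The study describes this interval as an apparent extension of Kcnk9. The annotated exons of Kcnk9 hold 1209 bases, against 1207 in its coding exons. Its annotated end is thus close to the end of the coding part and need not be the end of the transcript. The 2860 bases between the annotated end of Kcnk9 and the interval held 3970 reads in BxC and 3768 in CxB, or 10.8 and 12.01 RPKM. This gap was 1.27 times (1.19 to 1.35) as dense as the annotated Kcnk9 exons in BxC and 1.27 times (1.19 to 1.36) in CxB. With each line counted once the direction turned, to 0.858 and 0.938 times. Coverage of at least 1 read, joined over gaps of at most 100 bases, ran without a break from the last exon of Kcnk9 through AK039650/AK044369, for 8232 bases past the annotated end in BxC and 10235 bases in CxB.

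The reads then stopped at like places. From 9.25 to 10.25 kb past the annotated end of Kcnk9, 532 reads began in BxC and 635 in CxB. From 10.25 to 12.25 kb, 2 and 3 reads began. No spliced read touched this stretch in either library, and the limit on junctions given for Peg13 holds here too. Over the first 10 kb past Kcnk9, which include AK039650/AK044369 itself, the log2 ratio of CxB over BxC was 0.23 (0.18 to 0.27). It was 0.15 (0.04 to 0.27) in the Kcnk9 exons, a value that rests on counting reads rather than lines, as given above. In the gap it was 0.16 (0.09 to 0.22), and in AK039650/AK044369 it was 0.32 (0.21 to 0.42). Whether Kcnk9 and AK039650/AK044369 are 1 transcript or 2 cannot be told apart with reads of this length.

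DQ715667 was likewise joined to Eif2c2. The gap of 2557 bases between them held 3940 reads in BxC and 3837 in CxB, or 11.95 and 13.7 RPKM, which was 1.01 times (0.97 to 1.05) the density of the Eif2c2 exons in BxC and 1.20 times (1.16 to 1.25) in CxB. By the same rule, coverage was unbroken from the last exon of Eif2c2 for 6030 bases past its end in BxC and 5774 bases in CxB. That stretch holds DQ715667 and enters the annotated 3′ end of Chrac1, a gene transcribed towards Eif2c2 that encodes a subunit of a chromatin remodelling complex. Since strand was only weakly marked, reads in this stretch cannot be divided between Eif2c2 and Chrac1. The annotated junction to the last exon of Chrac1-003, which reaches nearest to DQ715667, had 0 reads in both libraries. That of Chrac1-001 had 28 and 22. Whether the Chrac1-003 junction was among the sequences aligned to is not given.

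The ratio of CxB over BxC along this stretch depended on the counting. Over reads it was -0.08 (-0.12 to -0.03) on the log2 scale in the last exon of Eif2c2, 0.19 (0.13 to 0.26) in the gap, -0.06 (-0.27 to 0.15) in DQ715667 and -0.41 (-0.58 to -0.24) between DQ715667 and Chrac1. With each line counted once, a setting added here after the data were seen, the same values were -0.07, 0.00, -0.19 and -0.14, so most of the unevenness was not seen. In the gap 69.4% of reads in BxC and 68.3% in CxB lay on the plus strand, opposite to Eif2c2, against 56.8% and 56.5% in the Eif2c2 exons. With each alignment line counted once, the shares were 50.4% and 52.0% in the gap and 45.2% and 47.8% in the Eif2c2 exons, a smaller difference in the same direction. In the exons of Chrac1, a plus-strand gene, 42.9% and 40.4% of reads lay on the plus strand, or 41.5% and 40.8% of lines. By reads, the larger share over protein-coding genes also lay opposite to the gene, as given above. Which gene the gap's reads came from was not tested.

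**Figure D5:**
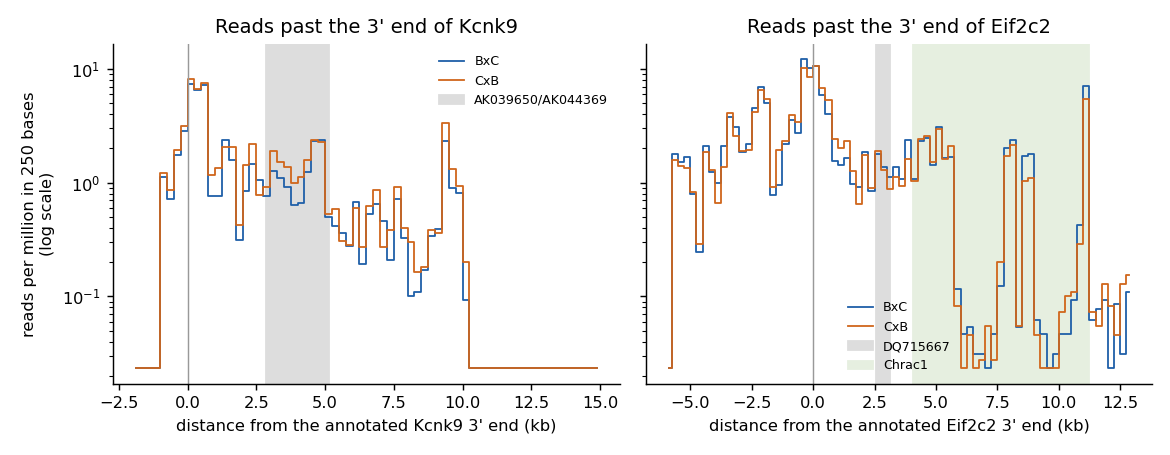
RPM in windows of 250 bases (log scale) by distance from the annotated 3′ end of Kcnk9 (left) and Eif2c2 (right), with the candidate intervals in grey and Chrac1 in green. Reads continue from Kcnk9 through AK039650/AK044369 and stop a little past 10 kb in both libraries. Those past Eif2c2 run through DQ715667 into the annotated span of Chrac1. They are low in both libraries at 5.875 kb and higher again at 7.875 kb.

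Over the 5 members with an annotated strand pooled, 41.7% of reads in BxC and 41.6% in CxB lay on the strand of the gene. Reads where Nibp and 1810044A24Rik overlap were counted in both. The opposite share ran from 56.4% in 1810044A24Rik to 59.6% in Nibp in BxC, and from 56.7% in Eif2c2 to 60.3% in Nibp in CxB. All members thus lay within the range of protein-coding genes, whose 5th and 95th percentiles were 47.5% and 64.7% in BxC. For Peg13 it was 58.9% in BxC and 58.4% in CxB. With each line counted once, the opposite share was 45.4% and 44.5% in Peg13, 49.3% and 50.6% in the Trappc9 exons and 58.8% and 60.8% in the Trappc9 introns, so Peg13 was then the lowest of these.

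Other annotated genes of the stretch were measured beside the members. Chrac1 had 7.30 RPKM in BxC and 6.08 RPKM in CxB over its exons, a log2 ratio of -0.27 (-0.36 to -0.17). Over the exons of its short transcript Chrac1-001 it had 17.1 and 13.2 RPKM, a ratio of -0.37 (-0.48 to -0.27). With each line counted once these ratios were -0.10 and -0.16. Ptk2, which encodes focal adhesion kinase, had 8.06 and 8.10 RPKM, a ratio of 0.01 (-0.05 to 0.07). Between Trappc9 and Chrac1 the density was 0.0343 and 0.0453 RPKM. The expressed genes on both sides of Trappc9 were thus within 1.5-fold between the crosses, as were Kcnk9 and Trappc9. So were nearly all of the 15427 annotated genes with enough reads, of which 0.473% were at least 1.5-fold higher in CxB and 0.622% lower. This does not set the genes of the stretch apart.

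No gene with enough reads for a ratio passed 1.5-fold in the gene families of the members. Such genes were rare over the whole annotation too, at 0.473% higher in CxB and 0.622% lower. Lists this short would mostly hold none, so the counts of 0 do not set these families apart from other genes. Of 14 tandem-pore potassium channels, 10 had at least 100 reads in each library, and 0 of these reached 1.5-fold in either direction. Their median log2 ratio was 0.12. Kcnk2, which encodes the mechanically gated channel TREK1, was the densest at 11.6 and 12.4 RPKM, followed in BxC by Kcnk10 (8.78 and 8.29 RPKM) and Kcnk9 (8.50 and 9.45 RPKM over annotated exons). Kcnk1 was near them at 8.17 and 8.94 RPKM, so that the order of Kcnk1, Kcnk9 and Kcnk10 differed between the libraries.

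Of 15 TRAPP subunits, 14 had enough reads and 0 reached 1.5-fold, with a median of -0.09. Trappc4 (43.6 and 40.4 RPKM), Trappc3 (29.3 and 28.5 RPKM) and Trappc1 (24.7 and 25.7 RPKM), which belong to the shared core of the complex, were the densest. Trappc9, over all annotated exons, was at 7.98 and 6.76 RPKM, and Trappc10, another subunit of the form of the complex that holds Trappc9, was at 16.4 and 17.4 RPKM.

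All 13 genes of the small RNA pathway had enough reads, and 0 reached 1.5-fold, with a median of 0.00381. Drosha, the nuclear enzyme that cuts microRNA precursors, was the densest in BxC, at 25.1 RPKM against 22.7 RPKM in CxB. Eif2c1, at 22.9 and 23.1 RPKM, was the densest in CxB. Tnrc6c, a partner of the Argonaute proteins, was at 16.0 and 16.3 RPKM, and in CxB Tnrc6a was denser than it, at 16.9 RPKM. Eif2c2 (11.8 and 11.4 RPKM) was thus less dense than Eif2c1 and denser than Eif2c3 (2.09 and 1.92 RPKM) and Eif2c4 (3.95 and 4.39 RPKM) in both libraries.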

How the data were processed

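The authors aligned 36-base reads with Novoalign to mm9 (per the submitters' processing notes), to gene models and to splice junction sequences, kept uniquely mapping reads, and deposited the alignments as lines with a position, a strand and a whole number, which was taken as the count of reads on the line. The sources used here do not define that number. In the domain, 2028 of 28757 lines in BxC and 1315 of 23811 in CxB repeated the position, strand and blocks of another line. The libraries were prepared, by the study's methods, to keep strand and without pooling embryos.

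Reads were counted where any aligned block overlapped a feature, on both strands, scaled to the library total and given per kilobase (RPKM). GENCODE annotation and the genome of the same build were used, and chromosome lengths were checked. Reads over Peg13 were left out of Nibp. Densities in Trappc9 introns and exons used the gene's strand, as planned, although strand proved weakly marked. Counts received exact Poisson intervals, shares exact Clopper-Pearson intervals, and ratios the interval of the binomial share. A ratio needed at least 100 reads in each library, except in windows of 1 kb. No test between the crosses was possible with 1 library each. Alternatives were each line counted once, other scalings, exons or strands, and other read minima. Named genes were the members and annotated genes of the region that reached 100 reads in both libraries. They also included the 3 densest genes of each family list in BxC, any family gene past 1.5-fold, and cell type markers. Kcnk1, Trappc10, Eif2c3, Eif2c4 and Tnrc6a were added after their values were seen. Members and lists were chosen with earlier results of these data known. 1 marker and 1 splice site sequence are not reported here. The ratio step was tested on simulated data. Promoter sequences for comparison were RefSeq's on GRCm38.p6, which held none for Peg13. Analyses used Python 3.11.15, numpy 2.4.6, pandas 2.3.3, scipy 1.17.1 and matplotlib 3.10.9.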

Additional observations from a re-analysis of the deposited data

How the results depend on the processing

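With 1 library per cross no replicate could be left out. No paired analysis was possible because each group holds 1 sample and no test was made. The counts of junctions with reads stayed within 1.5-fold under every alternative run. The median ratio of the members is the value of DQ715667. Under every alternative run it stayed within the counting interval of DQ715667 (-0.27 to 0.15), which is the widest of the 7. Of the single members, the log2 ratios of Kcnk9 (0.16 to -0.01), Peg13 (-0.17 to -0.09), Nibp (-0.20 to -0.15) and 1810044A24Rik (-0.20 to -0.09) left theirs with each line counted once. Each line counted once moved the median level to 7.26 RPKM in BxC and 7.32 RPKM in CxB (5.07 and 5.38 as reported), the pooled share on the gene's strand to 49.3% and 48.4%, the Peg13 share of the Nibp span to 43.8% and 44.9%, the Trappc9 exon to intron ratio to 58.0 and 63.3, the ratio of intron density after to before Peg13 to 1.95 in BxC, the gap of Kcnk9 to 0.858 and 0.938 times the exon density, and that of Eif2c2 to 1.06 times in CxB. The Peg13 share thus fell below that of the rest of the span, and the Kcnk9 gap below its exons. Annotated exons gave median levels of 11.4 and 10.03 RPKM, and reads on the gene's strand 0.559 and 0.544 RPKM over 5 members. Reads on the Peg13 strand gave a Peg13 share of 63.6% in CxB. Without the 5 kb next to Peg13, the exon to intron ratio was 110 in BxC and 94.0 in CxB, and the ratio after to before 1.77 in BxC. On both strands, a setting added after the data were seen, the latter was 2.67 and 2.22. At a minimum of 10 reads, 1 family gene, Kcnk7, passed 1.5-fold. Intervals cover counting error only, and the shifts between reads and lines exceeded them for the values named here.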

Other observations

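Ptk2, the next gene after Eif2c2, encodes focal adhesion kinase and has 3 annotated exons of at most 30 bases that were read by junctions in both libraries. For the exon of 9 bases (chr15:73042417-73042425), the flanking junctions carried 205 and 15 reads in BxC and 177 and 12 in CxB, and 52 and 27 reads skipped it, which gave an inclusion of 67.9% in BxC and 77.8% in CxB. For the exon of 21 bases (chr15:73106051-73106071) inclusion was 92.0% and 93.1%, with 1 skipping read in each library. For the exon of 18 bases (chr15:73112648-73112665) it was 53.8% and 74.2%, from 9 and 4 skipping reads. With each line counted once the values were 68.3% and 64.9% for the 9-base exon and 87.5% and 85.7% for the 21-base exon, so the order of the libraries turned in both, and 45.5% and 50% for the 18-base exon, a smaller difference. These exons were chosen after their values were seen.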
